A study of Mus musculus with 2 samples.

Results

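Neuregulins and the other EGF-like ligands are membrane-anchored growth factors that are cut from the cell surface and bind receptor tyrosine kinases of the ErbB family. The receptors signal in pairs: ErbB2 has no known ligand of its own and serves as the favoured partner, ErbB3 binds neuregulins but has little kinase activity, and ErbB4 and the EGF receptor bind ligand and are active kinases. In the heart, neuregulin 1 from endothelial and endocardial cells acts on cardiomyocytes through ErbB4 and ErbB2, a pathway known for trabeculation in the embryo and for the cardiac side effects of drugs that block ErbB2 in patients. The genes described here are the ligands Nrg1, Nrg4 and Hbegf and the receptors Erbb2, Erbb3, Erbb4 and Egfr, 7 of the 43346 Ensembl genes listed. They were taken as the entries of the gene and transcript tables whose identifier, without its version, belongs to these symbols, and all 7 were found.

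The RNA came from the heart of 1 adult female C57BL/6J mouse, 10 weeks old and with no treatment given in the labels. Poly(A) RNA was sequenced as 2 libraries of this single biological replicate, technical replicate 2, which was made later, and technical replicate 1. No condition was compared, so every spread below is between libraries, and none of it extends to other mice.

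Replicate 2 held 19685806 counts and replicate 1 held 22775979. Mitochondrial RNA took up much of both libraries, and nuclear genes made up 39.1% of TPM (a share of all transcripts, corrected for transcript length) in replicate 2 and 7.22% in replicate 1. Levels are therefore given as nuclear TPM, which is TPM rescaled to the same sum after leaving out mitochondrial genes and their nuclear copies. The counts on nuclear genes were 12654709 in replicate 2 and 5028142 in replicate 1, so counting error is larger in replicate 1. The mean GC content of the genes behind those counts was 50.5% in replicate 2 and 45.0% in replicate 1. The heart label fits the sums of the marker lists, of which the cardiomyocyte list had the highest in both libraries. Its 6 genes summed to 73789 nuclear TPM in replicate 2 and 14208 in replicate 1. Among them was the myosin light chain Myl2, at 25854 nuclear TPM in replicate 2 and 7563 in replicate 1. All 6 reached at least 1 nuclear TPM in both libraries, as did the 6 endothelial, 6 fibroblast and 6 macrophage genes. Reaching that level therefore does not single out cardiomyocytes.

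Some of the stretches in which the transcripts of these genes differ are shown here, because the transcript shares below refer to them. The transcripts also differ in longer parts that are not printed: Egfr-202 is 2943 bases long and Egfr-201 is 10208, Erbb2-202 is 4431 and Erbb2-201 is 5012, and Erbb4-202 starts with 303 bases that Erbb4-201 lacks. All are from GENCODE release M21 on GRCm38 (mm10) and read 5′ to 3′, with the stretch that tells the transcripts apart in capitals and the neighbouring exon bases in lower case. In Erbb4 the 48-base exon at chr1:68043908-68043955 on the minus strand, known as CYT-1, encodes a docking site for PI3 kinase and is present in Erbb4-201 and skipped in Erbb4-202. Upstream of it, the membrane-near exon of Erbb4-201 at chr1:68290243-68290317 (JM-a, which can be cut by ADAM17) is replaced in Erbb4-205 by the exon at chr1:68290439-68290483 (JM-b, which is not cut). Erbb2-202 keeps an intron of Erbb2 at chr11:98433050-98433130 on the plus strand. Egfr-202 runs on past an exon at chr11:16887186-16887225 on the plus strand, where its coding sequence ends. The exon of Nrg4-213 at chr9:55280890-55280983 on the minus strand encodes part of the EGF-like domain and is not in Nrg4-209.
Erbb4-201, CYT-1 exon: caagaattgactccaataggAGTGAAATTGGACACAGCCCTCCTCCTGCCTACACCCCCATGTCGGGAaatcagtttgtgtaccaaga
Erbb4-202, the same junction without it: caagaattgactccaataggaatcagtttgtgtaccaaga
Erbb4-201, JM-a exon: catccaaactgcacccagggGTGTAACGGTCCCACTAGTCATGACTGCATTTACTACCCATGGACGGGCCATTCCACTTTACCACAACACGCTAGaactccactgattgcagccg
Erbb4-205, JM-b exon: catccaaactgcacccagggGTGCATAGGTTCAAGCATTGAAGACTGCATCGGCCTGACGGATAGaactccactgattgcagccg
Erbb2-202, retained intron: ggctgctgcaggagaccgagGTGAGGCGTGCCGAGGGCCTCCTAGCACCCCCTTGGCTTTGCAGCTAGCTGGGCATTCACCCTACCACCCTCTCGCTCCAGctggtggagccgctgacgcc
Egfr-202, its own coding end: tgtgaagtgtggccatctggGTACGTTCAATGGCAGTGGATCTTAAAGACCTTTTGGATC
Nrg4-213, coding exon: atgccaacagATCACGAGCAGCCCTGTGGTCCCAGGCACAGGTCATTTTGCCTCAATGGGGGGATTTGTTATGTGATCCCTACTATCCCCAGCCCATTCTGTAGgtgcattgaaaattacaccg

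The ligands differed widely in level, with Hbegf the most abundant of the 3 and Nrg1 the least in both libraries by nuclear TPM. Hbegf, on chromosome 18 (36504927 to 36515805, minus strand), encodes heparin-binding EGF-like growth factor, a ligand of the EGF receptor and ErbB4. It had 240 counts in replicate 2 and 58 in replicate 1, or 14.5 nuclear TPM (95% Poisson interval 12.7 to 16.5) in replicate 2 and 11.3 (8.61 to 14.7) in replicate 1. The level was higher than that of 83.9% of nuclear genes in replicate 2 and 84.4% in replicate 1, so its rank was almost the same in both. These intervals, like all others given here, cover counting error only, since reads without molecular identifiers are not independent molecules.

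Nrg4, on chromosome 9 (55220222 to 55326844, minus strand), encodes neuregulin 4, a ligand of ErbB4 best known as a factor secreted by adipose tissue. It had 30 counts in replicate 2 and 11 in replicate 1, which gave 3.35 nuclear TPM (2.26 to 4.78) in replicate 2 and 2.55 (1.27 to 4.56) in replicate 1. The intervals overlap over most of their length. The Nrg4 locus shares 202 exon bases with Fbxo22 on the opposite strand, which had 530 counts in replicate 2 and 230 in replicate 1. No source used here says whether reads were counted by strand. Reads of the pair may therefore be mixed, and with so few counts for Nrg4 this limits its level.

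Nrg1, on chromosome 8 (31814551 to 32884029, minus strand), encodes neuregulin 1, the ligand of ErbB3 and ErbB4 with the best known role in heart. It had 6 counts in replicate 2, or 0.414 nuclear TPM (0.152 to 0.902), and no count in replicate 1. There the upper limit of the interval was 0.822 nuclear TPM, and 3 counts would be 0.669. A difference between the libraries was not detectable at this depth, and no fold is given. The deposited tables list a single Nrg1 transcript, whereas M21 annotates 18, of which 13 are coding and 9 of these start more than 50 kb before Nrg1-201. In M21, Nrg1-201 is 2452 bases long and covers 23.7% of the 10351 exon bases of the gene, and the transcript in the deposited tables is shorter, at 2103 bases. Reads from exons outside it have no Nrg1 transcript in the tables to be assigned to, while reads from exons that it shares with other forms would be counted, so the level covers part of the gene's exons. The endothelial marker list, which holds genes of the cells that are the known source of Nrg1, summed to 669 nuclear TPM in replicate 2 and 362 in replicate 1, and all 6 of its genes reached at least 1 nuclear TPM in both. The endocardial list summed to 140 nuclear TPM in replicate 2 and 74.8 in replicate 1. Both libraries came from the same heart. The median log2 ratio of replicate 2 over replicate 1 was 1.54 for the endothelial list and 2.58 for the endocardial list. Set against genes of like GC content, these medians were 0.14 and 0.11. Over all marker lists, medians set against such genes ran from -0.36 (epicardial) to 1.40 (macrophage), with 1.17 for the cardiomyocyte list. What moved the sums between the libraries was not tested. Within a library of bulk tissue, the number of cells of a type and the RNA per cell cannot be told apart.

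Of the receptors, Erbb3 had intervals that overlapped between the libraries, and those of the other 3 did not overlap. Erbb3, on chromosome 10 (128567523 to 128589652, minus strand), encodes the neuregulin receptor with little kinase activity, which is strongly expressed in Schwann cells. It had 311 counts in replicate 2 and 84 in replicate 1, or 7.06 nuclear TPM (6.3 to 7.89) in replicate 2 and 6.16 (4.91 to 7.62) in replicate 1. The mean of 6.61 ± 0.637 nuclear TPM (SD, n = 2 libraries) had the smallest spread, relative to its size, of the 7 genes. Of the 7 Schwann cell markers examined, 3 reached 1 nuclear TPM in both libraries, and the list summed to 82.2 nuclear TPM in replicate 2 and 108 in replicate 1. Most of each sum was Pmp22, at 60 nuclear TPM in replicate 2 and 93 in replicate 1. The median log2 ratio of replicate 2 over replicate 1 was 2.53 for the 6 tested markers, and -0.24 against genes of like GC content. Sox10, a defining marker of that lineage, had 24 counts in replicate 2 and 0 in replicate 1. Its GC content is 61.7%, and genes of like GC content had a median log2 ratio of 5.13. The part of Schwann cells in the Erbb3 level was not tested.

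Erbb4, on chromosome 1 (68032186 to 69108059, minus strand), encodes the active neuregulin receptor of cardiomyocytes. It had 318 counts in replicate 2 and 655 in replicate 1, although replicate 2 had more counts on nuclear genes. Its level was 3.69 nuclear TPM (3.29 to 4.11) in replicate 2 and 24.1 (22.3 to 26.1) in replicate 1. It was thus the fourth of the 7 in replicate 2 and the most abundant in replicate 1.

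Erbb2, on chromosome 11 (98412470 to 98437716, plus strand), encodes the partner receptor that forms heterodimers with ErbB4 in cardiomyocytes. It had 184 counts in replicate 2 and 3 in replicate 1, or 5.19 nuclear TPM (4.47 to 6.0) in replicate 2 and 0.266 (0.0548 to 0.776) in replicate 1. The libraries therefore gave opposite pictures of the ErbB2 and ErbB4 pair. The neighbouring gene Mien1 shares 9 exon bases with Erbb2 on the opposite strand and had 366 counts in replicate 2 and 40 in replicate 1.

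Egfr, on chromosome 11 (16752203 to 16918158, plus strand), encodes the EGF receptor, which Hbegf, Egf and Tgfa activate. It had 200 counts in replicate 2 and 162 in replicate 1, or 2.86 nuclear TPM (2.48 to 3.29) in replicate 2 and 7.41 (6.31 to 8.64) in replicate 1. Its level was below that of Erbb4 in both libraries.

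**Figure D1:**
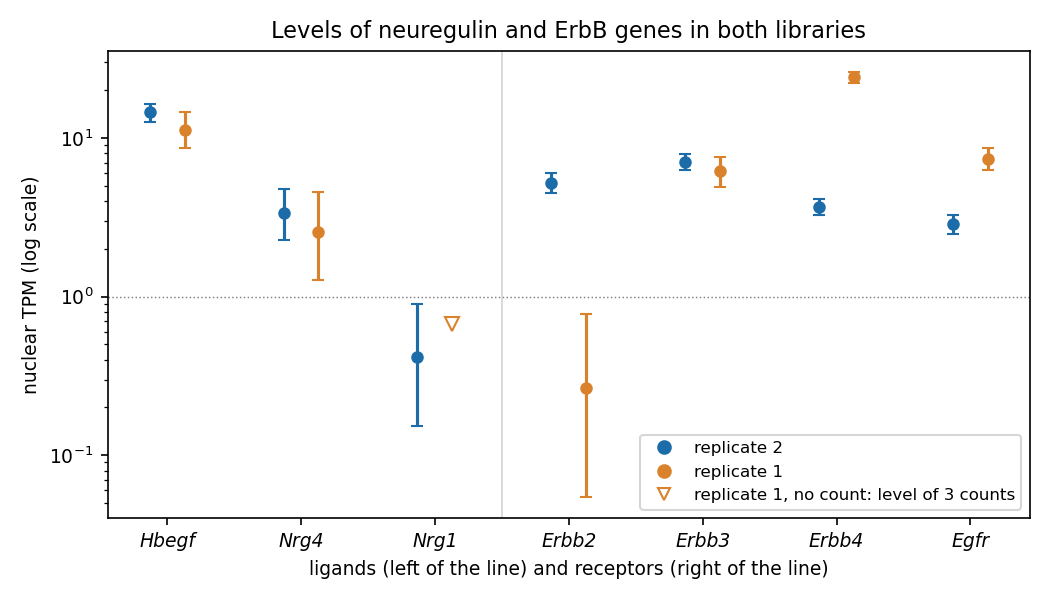
Nuclear TPM of the 7 genes on a log axis, replicate 2 beside replicate 1, with 95% Poisson intervals from counts as bars. The open symbol for a count of 0 is at the level of 3 counts. Hbegf, Erbb3 and Nrg4 have overlapping intervals in the 2 libraries, Erbb2 is higher in replicate 2 (5.19 against 0.266), and Erbb4 and Egfr are lower in replicate 2.

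At least 1 nuclear TPM was reached in both libraries by 5 of the 7 genes, all but Erbb2 and Nrg1. Over the libraries the levels averaged 12.9 ± 2.26 nuclear TPM for Hbegf, 2.95 ± 0.564 for Nrg4, 2.73 ± 3.48 for Erbb2, 13.9 ± 14.5 for Erbb4 and 5.14 ± 3.22 for Egfr (SD, n = 2 libraries). The SD exceeds the mean for Erbb2 and Erbb4, so their averages say little.

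The order of the levels was Hbegf, Erbb3, Erbb2, Erbb4, Nrg4, Egfr and Nrg1 from high to low in replicate 2. In replicate 1 it was Erbb4, Hbegf, Egfr, Erbb3, Nrg4, Erbb2 and Nrg1. Neighbours in that order whose intervals overlapped were Erbb4 with Nrg4 and Nrg4 with Egfr in replicate 2, and Hbegf with Egfr, Egfr with Erbb3 and Erbb2 with Nrg1 in replicate 1. Of the 21 pairs of genes, 11 had intervals that did not overlap and lay in the same order in both libraries. Those 11 place Nrg1 below Nrg4, Hbegf, Erbb3, Erbb4 and Egfr, Hbegf above Nrg4, Erbb2 and Erbb3, Erbb3 above Nrg4 and Erbb2, and Erbb4 above Egfr. The places of Hbegf and Erbb3 above Nrg4 depend on the abundance estimate. By the deposited posterior mean TPM, another such estimate, Nrg4 was the higher in replicate 1 (0.97, against 0.81 for Hbegf and 0.44 for Erbb3). A further 4 pairs were set apart in both libraries but in opposite order: Erbb4 with Hbegf, with Erbb2 and with Erbb3, and Erbb2 with Egfr. The other pairs were set apart in replicate 2 alone (3 pairs) or in replicate 1 alone (3 pairs).

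A ratio of genes within a library does not depend on how the libraries are scaled, although it can still move with properties in which the genes differ, such as GC content. Erbb2 over Erbb4 was 0.47 in replicate 2 and -3.94 in replicate 1 as log2 of (TPM + 0.1), a scale that understates the ratio of low genes. As counts per effective length, Erbb2 was 1.41 times Erbb4 (exact binomial 95% interval 1.17 to 1.69) in replicate 2, whereas Erbb4 was 90.9 times Erbb2 (31 to 442) in replicate 1. The partner receptor was thus the more abundant of the cardiomyocyte pair in replicate 2 and far the less abundant in replicate 1.

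Against the other neuregulin receptor gene, Erbb3, Erbb4 was again the lower in replicate 2 and the higher in replicate 1. Erbb4 was 0.522 times Erbb3 (0.445 to 0.613) in replicate 2 and 3.92 times Erbb3 (3.12 to 4.98) in replicate 1. Erbb2 was 1.81 times Egfr (1.48 to 2.23) in replicate 2, and Egfr was 27.9 times Erbb2 (9.38 to 137) in replicate 1. Each of these 3 receptor ratios had a direction that depended on the library. With replicate 1 adjusted by the GC trend, the mean log2 ratio was 0.00 for Erbb2 over Erbb4 (-1.74 without), -0.69 for Erbb4 over Erbb3 (0.44 without) and 0.47 for Erbb2 over Egfr (-0.81 without). The ligand ratios kept theirs: Hbegf was 35.1 times Nrg1 (15.9 to 96.5) in replicate 2 and at least 13.3-fold higher in replicate 1 (exact lower limit; 16.9 with Nrg1 set at 3 counts). Nrg4 was 8.08 times Nrg1 (3.31 to 23.7) in replicate 2 and at least 2.61-fold higher in replicate 1 (exact lower limit; 3.81 with Nrg1 set at 3 counts).

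Between the libraries, a gene was called when its counts, scaled by TMM (a library scaling that uses the bulk of genes), differed at least 2-fold and summed to at least 20. With 1 library on each side edgeR's quasi-likelihood test cannot be fitted, no p-value is given, and a call has no replicate check. Nrg1 was left out by the count minimum, and of the other 6 genes 3 were called (66.4% of the 13182 genes tested were). In replicate 2, 1 was higher (39.0% of all tested were) and 2 were lower (27.3% of all tested were). Their median log2 ratio was 0.17, against 0.21 over all genes tested. Calls of this size were common across the transcriptome, and the numbers for these genes do not set them apart.

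Erbb2 was the gene called higher, at 22.1-fold in replicate 2 (exact binomial 95% interval 7.46 to 108), a log2 ratio of 4.25. Erbb4 was 5.71-fold lower in replicate 2 (4.98 to 6.55), a log2 ratio of -2.51. Egfr was 2.24-fold lower in replicate 2 (1.81 to 2.77), a log2 ratio of -1.17, but 0.51 when all counts, mitochondrial ones included, served as library size. Under that scaling, which moved the median of all genes to 1.89, Erbb2 was still called higher, while Erbb4 had a log2 ratio of -0.83 and was no longer called. With it 4 of the 6 genes were higher and none lower in replicate 2, beside 66% of all genes higher and 1.11% lower.

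The remaining 3 genes stayed within 2-fold with TMM. With all counts as library size they were past 2-fold, with log2 ratios of 2.25 for Hbegf, 2.09 for Erbb3 and 1.62 for Nrg4. With TMM the values were as follows. Hbegf had a log2 ratio of 0.57 (interval 0.16 to 1.02) and Erbb3 one of 0.41 (0.07 to 0.78). With DESeq2 size factors Hbegf had 0.46 and Erbb3 0.31, so for Erbb3 it depends on the scaling whether the interval leaves out 0. Nrg4 had a log2 ratio of -0.06 (-1.06 to 1.12) with TMM, which leaves room for a difference of about 2-fold either way. Nuclear TPM and the count ratio are different scales, since TPM also uses the effective length of the transcripts that were assigned reads.

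The ratio between the libraries moved with the GC content of the transcripts. Erbb4 had the lowest GC content of the 7 genes, 40.1%, and the lowest ratio, and Erbb2 had the highest of both, with a GC content of 57.6%. Egfr had 45.0% GC, and Nrg4, Hbegf and Erbb3, the genes within 2-fold, had 48.9%, 49.9% and 51.2%. Genes of like GC content in the rest of the transcriptome moved alike: the median log2 ratio was 3.84 in the bin of 263 or 264 genes around the GC content of Erbb2, -1.99 in that of Erbb4 and -1.11 in that of Egfr. Set against those medians, Erbb2 differed by 0.41, Erbb4 by -0.52, Egfr by -0.06, Nrg4 by -0.04, Hbegf by 0.38 and Erbb3 by -0.17, all of them within 2-fold. Erbb4 stood lowest within its own bin, where 7.22% of genes had a lower ratio, while the other 5 lay between 41.4% and 65.5%.

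**Figure D2:**
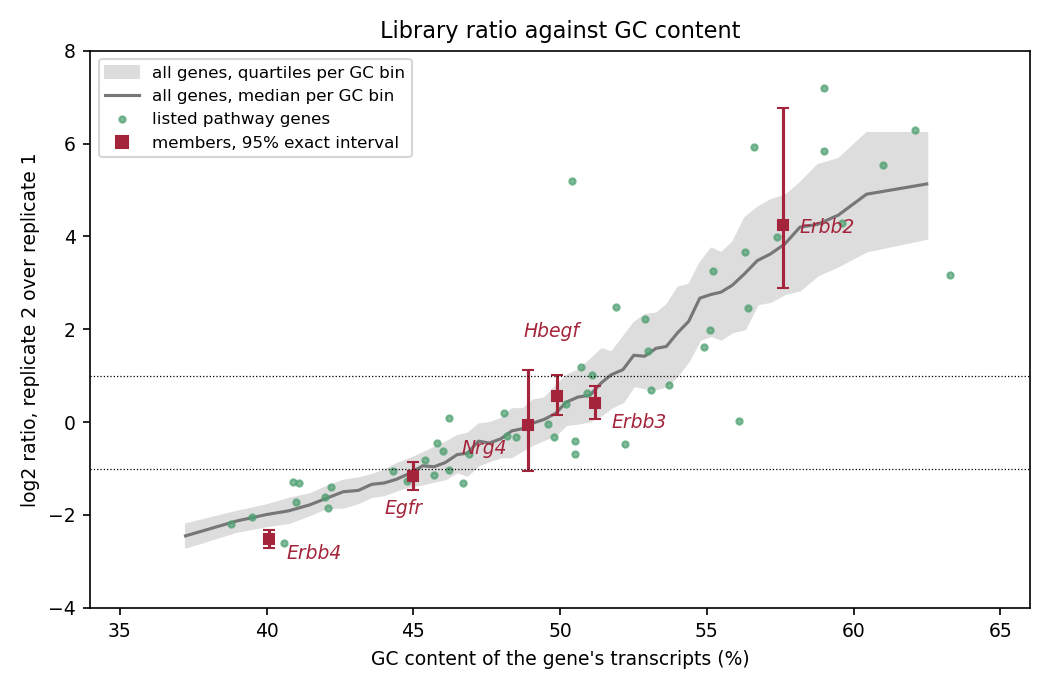
Log2 ratio of replicate 2 over replicate 1 (vertical axis) against the GC content of each gene's transcripts in percent (horizontal axis), with the median and quartiles of all tested genes in GC bins as a line and band, pathway genes as dots and the 6 tested genes as squares with 95% exact intervals. Erbb4 (GC 40.1%) lies below the band and Erbb2 (57.6%) lies within it.

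The GC content of the large receptor transcripts is uneven along their length. In Erbb4-201 the coding sequence of 3924 bases has 47.9% GC, but the 7858 bases after it, 66.7% of the transcript, have 35.9%. Egfr-201 has a similar layout, with 50.8% GC in 3630 coding bases and 39.8% in the 6306 bases after them. Erbb2-201 has a GC-rich coding sequence (57.6% over 3768 bases), and only 1051 bases follow it. The coding sequences of these 3 receptors are thus closer in GC content than the whole transcripts.

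The same transcript led in both libraries in 5 of the 7 genes, with shares taken from the authors' deposited isoform percent. Hbegf and Erbb3 have a single transcript in the tables, as has Nrg1, so the comparison has content for Erbb4, Erbb2, Egfr and Nrg4, and 3 of these 4 kept their leading transcript. Erbb4-201, with the CYT-1 and JM-a exons printed above, carried 64.2% of Erbb4 in replicate 2 and 100% in replicate 1. Erbb4-202, which lacks CYT-1, carried 33.0% in replicate 2 and 0% in replicate 1.

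Those Erbb4 shares rest on few informative reads. The deposited posterior mean, an average over the ways in which reads can be assigned to transcripts, gave Erbb4-202 109 ± 39.7 counts (posterior SD) in replicate 2 and 26.6 ± 22.0 in replicate 1, so a contribution in replicate 1 is not detectable rather than absent. Erbb4-201 and Erbb4-202 share 26 exons and differ, besides CYT-1 (58.3% GC), in 303 bases at the start of Erbb4-202 that have 70.3% GC. Reads in either stretch can separate them, so the share cannot be read as CYT-1 skipping alone. The mean GC content behind the nuclear counts was 50.5% in replicate 2 and 45.0% in replicate 1, and the part of GC content in these shares was not tested. Erbb4-205, the form with the JM-b exon, had 1.57 counts in replicate 2, a share of 2.81%, and none in replicate 1. It was chosen after its values were seen, because JM-b is the known alternative to JM-a. Erbb4-205 ends 280 bases after its JM-b exon and is 2196 bases long, so reads of a longer JM-b molecule beyond that end would be assigned to the JM-a transcripts, and these counts do not give the balance of JM-a and JM-b.

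Erbb2-201, the full-length coding transcript, carried 76.5% of Erbb2 in replicate 2 and 100% in replicate 1, the second from 3 counts. Erbb2-202, with the retained intron printed above and no annotated coding sequence, carried 23.5% in replicate 2 (39.2 counts, posterior mean 46.6 ± 19.0) and 0% in replicate 1. With 3 counts in replicate 1, a difference in this share was not detectable. Egfr-201, the full-length receptor, carried 89.2% in replicate 2 and 90.6% in replicate 1. Egfr-202, which has 16 of the 28 exons and ends before the kinase-coding ones, carried 10.8% in replicate 2 and 9.40% in replicate 1. Its shares rest on 6.44 counts in replicate 2 (posterior mean 6.97 ± 2.58) and 4.49 in replicate 1 (4.59 ± 0.73). By the deposited isoform percent, the Egfr shares were the closest between the libraries of the 4 genes with several transcripts. By the posterior isoform percent, Egfr-201 carried 48.9% in replicate 2 and 56.8% in replicate 1.

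Nrg4 had no common leading transcript. In replicate 2 Nrg4-209 carried 42.6% and Nrg4-210 32.1%, both without a coding sequence, followed by Nrg4-207 at 13.4% and Nrg4-212 at 12.0%. In replicate 1 Nrg4-207, annotated for nonsense-mediated decay, carried 61.5%, and the coding Nrg4-213 carried 38.5%. These shares come from 30 counts in replicate 2 and 11 in replicate 1. The posterior mean gave Nrg4-209 8.99 ± 5.56 counts and Nrg4-213 8.16 ± 5.69 counts in replicate 2, so the coding and noncoding forms were not resolved there.

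**Figure D3:**
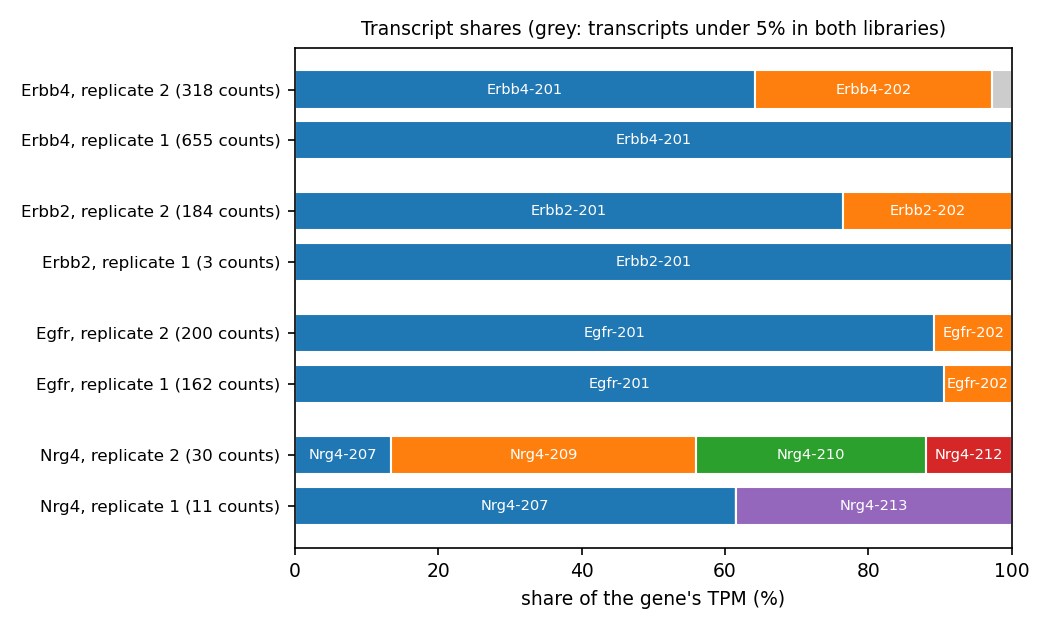
Share of each gene's TPM carried by each transcript in percent, as horizontal bars filling 100% with replicate 2 above replicate 1, for the 4 genes with several transcripts; colours mark transcripts and grey those under 5% in both libraries. Egfr-201 carries 89.2% in replicate 2 and 90.6% in replicate 1, Erbb4-202 appears in replicate 2 alone, and Nrg4 is divided among different transcripts.

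Around these genes, the pathway lists covered 57 genes, of which 51 had enough counts. In replicate 2, 19 were higher (37.3%), 14 were lower (27.5%) and 18 stayed within 2-fold, with a median log2 ratio of 0.03, so these shares lie near those of all genes tested (39.0% and 27.3%). Each list is described by the genes of highest mean level.

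Among the other EGF-like ligands, 4 of 8 were tested, with a median log2 ratio of 0.29. Of these 4, 1 was higher in replicate 2 (39.0% of all tested were) and 1 was lower (27.3% were). Egf, the founding ligand of the EGF receptor, had 4.17 nuclear TPM in replicate 2 and 4.95 in replicate 1. Btc, betacellulin, a ligand of the EGF receptor and ErbB4, had 1.28 nuclear TPM in replicate 2 and 9.21 in replicate 1, a log2 ratio of -2.61. Tgfa had 1.32 nuclear TPM in replicate 2 and 0.962 in replicate 1, and Areg had no count in either library. Hbegf was above Egf and Tgfa in both libraries, with intervals that did not overlap. Hbegf was also above Btc in replicate 2, but in replicate 1 their intervals overlapped (8.61 to 14.7 for Hbegf and 7 to 11.9 for Btc).

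The enzymes that shed ligands and receptors were all tested, with a median log2 ratio of 0.19. Of these 10, 4 were higher (39.0% of all tested were) and 2 lower (27.3% were). Adam10, a sheddase of Egf and Btc, had 27.5 nuclear TPM in replicate 2 and 117 in replicate 1 (log2 ratio -1.85). Adam17, which cuts Hbegf, neuregulins and the JM-a form of ErbB4, had 24.5 nuclear TPM in replicate 2 and 49.2 in replicate 1, a log2 ratio of -0.82 that stayed within 2-fold. Adam9 had 35.2 nuclear TPM in replicate 2 and 89.7 in replicate 1 (log2 ratio -1.13).

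Of 16 downstream adaptors and kinases, 6 were higher (39.0% of all tested were) and 4 lower (27.3% were). Their median log2 ratio was 0.05. Pik3r1, the regulatory subunit of PI3 kinase that docks on phosphorylated receptors, had 51.2 nuclear TPM in replicate 2 and 196 in replicate 1 (log2 ratio -1.26). Grb2, the adaptor that links receptors to Ras, had 82.9 nuclear TPM in replicate 2 and 114 in replicate 1 (log2 ratio 0.40). Both genes were above all 4 receptors in both libraries.

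Of 13 genes that limit ErbB signalling or turn the receptors over, 3 were higher (39.0% of all tested were) and 5 lower (27.3% were). Their median log2 ratio was -0.45, and 0.09 when each gene was set against genes of like GC content. The ubiquitin ligase Nedd4 had 264 nuclear TPM in replicate 2 and 468 in replicate 1 (log2 ratio -0.45). Wwp1, a related ligase that acts on ErbB4, had 31.8 nuclear TPM in replicate 2 and 160 in replicate 1 (log2 ratio -2.04), and the phosphatase gene Ptpn12 had a log2 ratio of -1.32. Receptor partners and chaperones had 5 of 8 tested genes higher (39.0% of all tested were) and 2 lower (27.3% of all tested were). Their median log2 ratio was 2.34, and 0.50 when each gene was set against genes of like GC content. Hsp90ab1, a chaperone that stabilises ErbB2, had 1223 nuclear TPM in replicate 2 and 1538 in replicate 1 with a log2 count ratio of 1.01; its effective length was 2313 bases in replicate 2 and 1063 in replicate 1. Its inducible relative Hsp90aa1 had a log2 ratio of -1.61, and Erbin, a scaffold that binds ErbB2, one of -2.19.

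**Figure D4:**
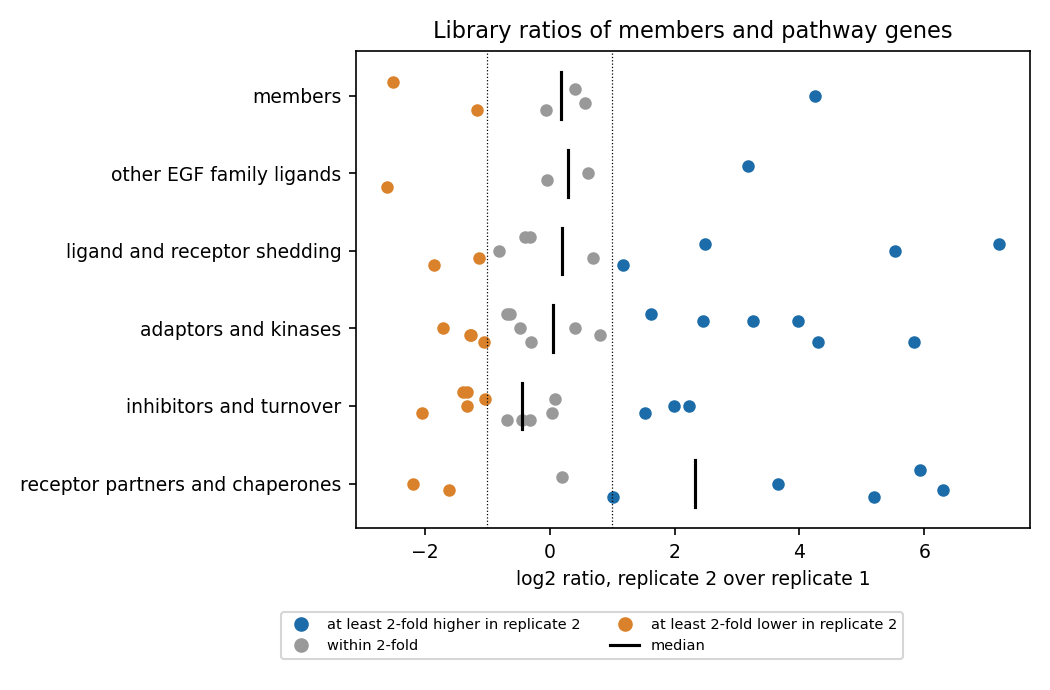
Log2 ratio of replicate 2 over replicate 1 for each tested gene, 1 line per list, with the median as a black bar and dotted lines at 2-fold. The 6 tested neuregulin and ErbB genes span -2.51 to 4.25. The list medians run from -0.45 (inhibitors and turnover) to 2.34 (receptor partners and chaperones). Against genes of like GC content, the medians of these lists are 0.09 and 0.50.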

How the data were processed

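Gene and transcript tables of 2 heart libraries were used, quantified by the authors on mm10 with annotation M4, per the file descriptions. Aligner and counting program were not given in the sources used here. The authors deposited expected counts (estimated reads, rounded here to whole numbers), TPM, FPKM, the percent of each gene's TPM per transcript, and posterior means. Identifiers were matched to GENCODE M21, which gave 42462 of 43346 genes a symbol; coordinates are 1-based on GRCm38. The 11 nuclear copies of mitochondrial genes (blastn 2.17.0, at least 95% identity over at least 90% of length) were left out of nuclear TPM. Log2 ratios were computed from the deposited expected counts with edgeR 4.0.16 TMM sizes and 0.5 counts added; called genes differ at least 2-fold with at least 20 counts, and no p-values were computed. Intervals are exact 95% ones (scipy 1.17.1). GC content is the TPM-weighted mean over M21 transcripts, compared in bins of 263 or 264 genes. The ratio script was tested on simulated data. Named pathway genes are the 3 of highest mean nuclear TPM per list and those with no count, except 1 that is not reported here; named transcripts reach 5% in either library. Members and lists were chosen with earlier results of these data known. The floor of a count of 0 is 3 counts. Alternatives changed the library scaling, count minimum, GC trend, pseudocount, abundance estimate and libraries used.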

Additional observations from a re-analysis of the deposited data

How the results depend on the processing

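With the sum of all counts as library size in place of TMM, 4 of the 6 tested neuregulin and ErbB genes were higher in replicate 2 and 0 lower. Of 51 pathway genes, 35 were higher and 0 lower, beside 66% of all genes higher and 1.11% lower. Egfr turned to a log2 ratio of 0.51. This scaling moved the median of all genes to 1.89, while nuclear totals (0.35) and DESeq2 size factors (0.11) changed no call of the 6 genes. Without a count minimum, 2 of 7 were higher (38.2% of all genes were), Nrg1 being the added gene. That call rests on 6 counts in replicate 2 and 0 in replicate 1, between which a difference was not detectable. With the GC trend removed, 0 were higher and 0 lower, and 6 pathway genes were higher and 5 lower, against 14.7% higher and 12.9% lower over all genes. The number of genes at 1 or more in both libraries, 5 by nuclear TPM, was 1 by TPM and 2 by FPKM. Erbb2 over Erbb4, on average -1.74, ranged from -3.94 to 0.47 when 1 library was left out and was 0.00 with replicate 1 adjusted by the GC trend. Erbb4 over Erbb3 (0.44) ranged from -0.89 to 1.77 and was -0.69 with that adjustment; Erbb2 over Egfr (-0.81) ranged from -2.42 to 0.80 and was 0.47 with that adjustment. Nrg4 over Nrg1 (1.96) was 0.62 with a pseudocount of 1, 3.60 with 0.01 and 3.20 with posterior TPM, and Hbegf over Nrg1 (3.84) was 1.69 with 1 and 5.72 with 0.01. The cause of these shifts was not tested, beyond what each setting changes by construction. Beside that 0.00, the other values of these counts and ratios kept their direction and moved by less than 1.5 times (counts) or 1 SD (ratios). That SD is of the same 2 libraries, so a value with 1 library left out lies within it by construction. It was 3.12 for Erbb2 over Erbb4, 1.88 for Erbb4 over Erbb3 and 2.28 for Erbb2 over Egfr. Such wide limits let large moves pass: with a pseudocount of 1, Erbb2 over Erbb4 was -0.56 and Erbb2 over Egfr was -0.04. Intervals aside, 14 of the 21 pairs of genes lay in the same order in both libraries by nuclear TPM, and 12 by posterior mean TPM. By posterior isoform percent the same transcript led in 6 of the 7 genes, against 5 before, but not in the same genes. Erbb2 dropped out, as Erbb2-201 carried 13.8% in replicate 1. Nrg1 and Nrg4 came in through transcripts with a posterior count of 0 in replicate 1. No paired analysis was possible because there is 1 group. Low counts limit Nrg1, Nrg4 and, in replicate 1, Erbb2.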

Other observations

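A few pathway genes stood far from genes of like GC content, and were chosen after their values were seen. Cdc37, which encodes the HSP90 partner that delivers kinases to the chaperone, had 1679 counts in replicate 2 and 16 in replicate 1, or 97.9 nuclear TPM in replicate 2 and 3.01 in replicate 1. Its log2 ratio of 5.20 compared with a median of 0.43 for genes of like GC content (50.4%). Spry1, a feedback inhibitor of receptor tyrosine kinase signalling, had 398 counts in replicate 2 and 140 in replicate 1, a log2 ratio of 0.03, against a median of 3.20 for genes near its GC content of 56.1%. Cav3, the muscle caveolin, had 760 counts in replicate 2 and 4 in replicate 1, a log2 ratio of 5.93 against 3.48 for genes of like GC content. Rhbdf2, an adaptor of Adam17, had 203 counts in replicate 2 and none in replicate 1, at least 19.7-fold higher in replicate 2 (exact lower limit; 24.4 with replicate 1 set at 3 counts). With 0.5 counts added its log2 ratio was 7.20, against a median of 4.26 for genes near its GC content of 59.0%. Its lower limit is a log2 ratio of 4.30, close to that median, so its distance from those genes is uncertain.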
